A study of Mus musculus with 4 samples.

Results

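Chodl cells are rare cortical and hippocampal interneurons that make somatostatin (Sst, a peptide transmitter) together with chondrolectin (Chodl, a membrane protein) and the neuronal nitric oxide synthase (Nos1). Most interneurons keep their axon near the cell body, while this type sends it to other areas and makes both a gas and several peptides as signals. Such cells arise in the medial ganglionic eminence, like the other Sst cells beside which they are measured here. 384 of the 26987 cells in the deposited matrices are members, chosen by measured RNA: 200 to 6000 genes, under 30% mitochondrial UMIs (unique molecules), at least 2 UMIs of Gad1 plus Gad2 (the enzymes that make GABA), no UMI of Mog (a myelin gene), Sst at 3000 CPM or more (UMIs of a gene scaled to the same total of 1e6 in every cell or sum) and at least 2 Chodl UMIs.

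The mice carry Nkx2-1-Cre, which acts in the medial ganglionic eminence, and the Ai14 TdTomato reporter used for sorting. WT mice have 2 intact Grin1 alleles (wt/wt) and null mice 2 floxed ones (fl/fl), so that Cre removes Grin1, the subunit every NMDA receptor needs. Frontal cortex and hippocampus of untreated littermates of both sexes, 18 to 20 days old, gave 3 WT and 2 null libraries per region, replicate 1 with 10x v2 chemistry and replicates 2 and 3 with v3. Animals were pooled within a library, and a library is the replicate throughout. The sexes are not given per library. By the study's description both regions came from the same brains, and it lists both regions under each replicate number, with both genotypes under 1 and 2. Libraries of the 2 regions with the same number may thus share animals, while the share tests and the gene fits treat all libraries as independent. The null libraries of the gene fits, cortex null 2 and hippocampus null 2, are such a pair. Sst cells with a Chodl UMI count of 0 (4259 cells) serve as the comparison and are called other Sst cells. The data are RNA of dissociated cells from a juvenile mouse, so axons, peptide release and nitric oxide itself were not measured.

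Members make up 6.17%, 12.0% and 5.05% of the Sst cells in the cortex WT libraries 1 to 3 (29, 112 and 66 members), and 5.06% and 32.5% in the cortex null libraries (4 and 150). In the hippocampus the shares are 0, 0.955% and 0.426% in WT (0, 4 and 1 members) and 0 and 3.14% in null (0 and 18). Cortex null library 2 stands alone at the top, while null library 1 lies inside the WT range. Replicate 2 has the highest share in all 4 groups. The 2 empty hippocampal libraries have upper limits of 1.66% and 4.76%, taken from 3 cells over their Sst cells, and the WT and null values overlap at 0. Intervals and limits of this kind cover counting error only.

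The cortex null mean exceeds the WT mean by 11.0 points (18.8 with an SD of 19.4 against 7.75 with an SD of 3.75, exact permutation p 0.4), and without cortex null library 2 the difference is -2.69. In the hippocampus the difference is 1.11 points (p 0.7), and without hippocampus null library 2 it is -0.460. WT hippocampus minus WT cortex is -7.29 points with no overlap (p 0.1, the smallest that 3 against 3 libraries can give, and one that leaves shared animals out of account). Within replicates 1 and 2, null minus WT is -1.11 and 20.4 points in cortex and 0 and 2.19 in hippocampus, and WT hippocampus minus WT cortex is -6.17, -11.1 and -4.62 within replicates 1 to 3. Depth enters the rule, since 2 UMIs are easier to find in a deep cell: Gad cells have median UMI counts of 7867, 4686 and 8625 in cortex WT and of 8371 and 13929 in cortex null. A cell with fewer than 3000 UMIs cannot be thinned to that total, and Sst cells of hippocampus WT library 2 have a median of 2457 UMIs. The main and thinned shares of that library are thus not directly comparable. With cells thinned to 3000 UMIs the cortical shares are 3.05%, 7.24% and 2.31% in WT and 1.61% and 11.4% in null, so library 2 of the null remains highest and the difference of means shrinks to 2.32 points (p 0.7). In the hippocampus they are then 0, 1.96% and 0 in WT and 0 and 1.44% in null, a difference of 0.0658 points (p 1), and WT hippocampus minus WT cortex shrinks to -3.54 (p 0.1). With Chodl at 300 CPM or more in place of 2 UMIs, the null minus WT difference is 5.28 points in cortex (p 0.7) and 0.729 in hippocampus (p 0.7). Cortex null library 2 also lost the most cells to the mitochondrial limit, 9.90% against at most 0.101% in cortex WT. Cortex null library 1 lost 1.66%, and hippocampus null libraries 1 and 2 lost 0.743% and 5.97%, against at most 0.127% in hippocampus WT. Every null library thus lost more than any WT library. Whether the share of cortex null library 2 reflects genotype or the preparation of 1 library cannot be told apart.

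**Figure D1:**
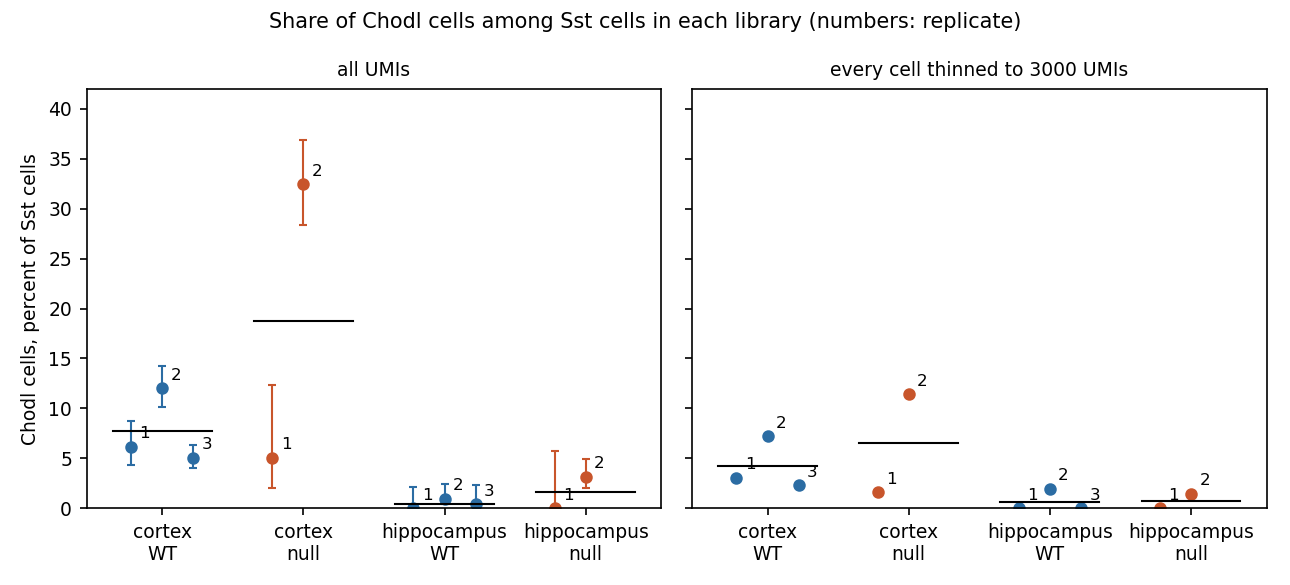
Percent of Sst cells that are Chodl cells (vertical axis) in each library of the 4 groups, from all UMIs (left, bars are 95% Wilson intervals, which at 0 cells reach above the 3-cell limits of the text) and after thinning cells to 3000 UMIs (right). Black lines are group means. Cortex null library 2 is highest at 32.5% and 11.4%.

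The threshold of 2 Chodl UMIs has no gap beside it. Nos1 has a UMI in 11.3% of Sst cells with 0 Chodl UMIs, 79.2% with 1, 90.5% with 2 and 98.8% with 5 or more. Tacr1, the receptor of substance P, follows at 1.46%, 46.8%, 57.1% and 85.3%, and Crhbp, which binds corticotropin-releasing hormone, at 42.9%, 70.1%, 83.3% and 93.3%. In these percents the 77 cells with 1 Chodl UMI, just outside the rule, lie between cells with none and members. In CPM of summed UMIs, cells with 1, 2 and 5 or more hold 1504, 2106 and 2148 of Nos1, 127, 137 and 148 of Tacr1 and 1089, 2204 and 2918 of Crhbp, so past the threshold Nos1 and Tacr1 are nearly level and Crhbp is higher. Pooled over libraries, median depth is 7873 UMIs at 0, 7274 at 1, 7847 at 2 and 18000.0 at 5 or more. Libraries differ in this. Cells with 1 and 0 Chodl UMIs have medians of 8255.5 and 8092, 4894.5 and 4776, and 8188 and 8549 in cortex WT 1 to 3. In cortex null 2 they are 6674 and 13331, and in hippocampus WT 2 5829 and 2426. The rise in percent and depth cannot be told apart. Oligodendrocytes serve as a floor: of 7078 (median 5795 UMIs, members 15749) 0.636% hold a Nos1 UMI, 0.141% a Tacr1 UMI and 0.989% a Crhbp UMI. Whether these UMIs are free RNA was not tested.

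**Figure D2:**
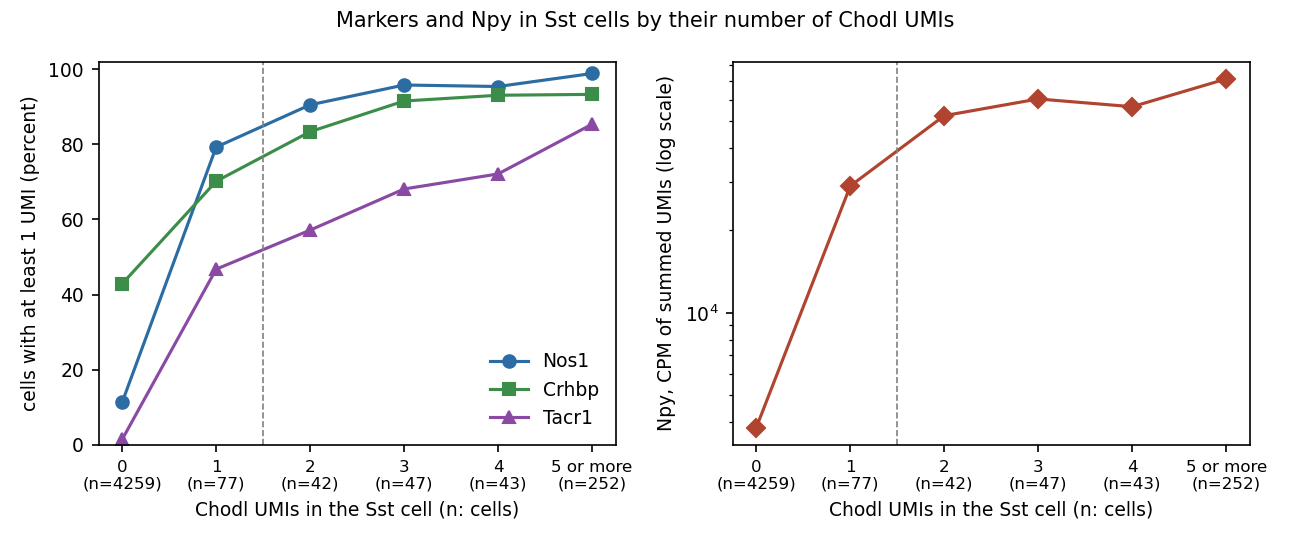
Percent of Sst cells with a UMI of Nos1, Crhbp or Tacr1 (left) and Npy in CPM of summed UMIs on a log axis (right) against the Chodl UMIs of the cell; the dashed line is the threshold of the rule. Npy climbs from 3821 CPM at 0 Chodl UMIs to 29035 at 1 and 71333 at 5 or more.

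Among the 384 members, 373 hold a Nos1 UMI, 298 hold Nos1 and Tacr1, and 274 hold Nos1, Tacr1 and Crhbp. All 384 hold neuropeptide Y (Npy), a peptide whose RNA is also found in 13.7% of oligodendrocytes, from a source that was not tested. Only 5 members lack all of Nos1, Tacr1 and Crhbp. The median member has 6 Chodl UMIs, 42 have exactly 2, and the lowest Sst value is 3342 CPM, with 4 members under 6000. Doublets were left in; Scrublet marks 249 cells of the series, of which 2 are members.

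Among Gad cells without a Mog UMI, Chodl at 2 or more UMIs is nearly confined to Sst cells. It occurs in 9 of 5219 Gad cells under the Sst threshold and in 0 of 7078 oligodendrocytes (upper limit 0.0424%, from 3 cells). Among cells with at least 2 Gad UMIs that the rule drops for a Mog UMI, 40 of 903 have it. Another 20 of 15359 cells with under 2 Gad UMIs have it, 19 of them among 613 whose Sst passes the threshold. Glial and glutamatergic markers other than those of oligodendrocytes are low in members: glutamatergic genes sum to 0.492 CPM, astrocyte genes to 3.12 CPM, and microglial genes have no UMI at all. Oligodendrocyte genes sum to 211, 126, 166, 170 and 208 CPM in members of cortex WT 1 to 3, cortex null 2 and hippocampus null 2, and to 185, 131, 174, 120.1 and 322 in other Sst cells, higher in members in 2 of these libraries. Markers of other interneurons are lower in members of these libraries but present. Those of other Sst classes sum to 267, 528, 486, 336 and 660.3 CPM against 1178, 1357, 1565, 1176 and 1126, and those of Pvalb cells to 92.8, 177, 154, 42.3 and 373 against 1694, 1851, 1921, 2004 and 1173. Neurogliaform markers in hippocampus null 2 are level, at 174 and 180.0 CPM. In the 4 members of cortex null 1, markers of other Sst classes are higher, at 1275 CPM against 1147 in other Sst cells.

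Members yield more UMIs per cell than other Sst cells, a direction that the rule itself favours. Their median UMI counts in cortex WT 1, 2 and 3, cortex null 2 and hippocampus null 2 are 12942, 9213, 16395, 19092 and 17680.0, against 8092, 4776, 8549, 13331 and 14784 in other Sst cells. In every library with members these are the deeper cells. Pooled over libraries, which differ in depth, cells with exactly 2 Chodl UMIs and cells with none have medians of 7847 and 7873. These cells were not compared within libraries. The 5 libraries listed hold at least 10 members each, and values below keep their order. Npy takes 6.42%, 6.05%, 6.91%, 7.23% and 5.79% of all member UMIs and 0.404%, 0.495%, 0.372%, 0.611% and 0.320% of those in other Sst cells. With Sst, by which the cells were chosen, the 2 peptide genes reach 8.65%, 8.30%, 9.81%, 10.3% and 9.17%.

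Summed per library and fitted with library as a block, members differ from other Sst cells in 2801 of 12242 genes tested (22.9%), 1343 higher (11.0%) and 1458 lower (11.9%). A gene is called at an edgeR adjusted p under 0.01 and a log2 change of at least 0.144. The median change over all genes is -0.09. Scaling by library size in place of TMM moves the median by -0.27 and the calls to 759 higher and 3223 lower, 19.1% higher in place of 47.9%, and DESeq2 calls 1301 higher and 931 lower (58.3%). The balance of rises and falls therefore hangs on the scaling. Of the called genes 1444 (51.6%) have no overlap between the sets, as have 2171 (17.7%) of all genes tested. Without cortex null library 2 the count is 1834, and after thinning cells to 3000 UMIs it is 1182. Since Chodl, Sst, Gad1, Gad2 and Mog chose the cells, those genes are left out of all counts. Only Chodl separates the sets by the rule, since both pass the same Sst, Gad and Mog limits. The median Sst level is 25877 CPM in members and 11845 in other Sst cells.

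Of 30 genes for peptides and their processing 26 were tested, and 8 are higher, 13 lower and 5 not called (median -0.44, against -0.09 over all genes). Npy reaches 64161, 60518, 69087, 72348 and 57884 CPM in members and 4042, 4948, 3719.7, 6109 and 3197 in other Sst cells. Penk, the precursor of enkephalins, lies at 366, 530.4, 573, 412 and 361 against 39.7, 61.9, 41.6, 116 and 19.5, and Crhbp at 2899.9, 2679.9, 3460.1, 2636 and 1354 against 113, 269, 253, 469.7 and 619.8. In all 3 the lowest member library is above the highest library of other Sst cells, at log2 changes of 4.17, 3.41 and 3.35 (edgeR adjusted p 6.96e-16, 1.70e-10 and 5.64e-08). Hippocampus null 2 has the narrowest Crhbp gap. Of the enzymes that process precursors, the convertase Pcsk2 rises by 2.39 and the amidating enzyme Pam by 2.15, from 42.2, 86.1, 59.2, 45.5 and 47.5 and 254, 212, 199.9, 229 and 189 CPM in other Sst cells to 135, 404, 255, 249.6 and 177 and 956, 839, 665, 941 and 642. Neither overlaps, while another convertase, Pcsk1 (0.22), and the carboxypeptidase Cpe (-0.11) are not called.

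Most other peptides fall. Tac2, the precursor of neurokinin B, has 0 UMIs in the members of all 5 libraries and 2548 in other Sst cells, at least 164-fold lower. Crh, corticotropin-releasing hormone, has 2.81, 4.11, 5.36, 1.02 and 3.06 CPM against 144, 83.3, 145, 110.0 and 71.3, and Cck, cholecystokinin, 0, 1.64, 2.68, 1.02 and 6.11 against 26.4, 40.8, 65.1, 85.9 and 36.1. Members are lower in every library without overlap (log2 -5.03 and -4.93, edgeR adjusted p 4.07e-12 and 2.28e-10). Cortistatin (Cort), a close relative of Sst, is 475, 539, 295, 358 and 266 against 521, 869, 728, 1040.5 and 659.6 CPM: lower in each library, though the ranges overlap (log2 -0.75). Cartpt, a feeding-related peptide, falls by 3.93 on the log2 scale, from 209.9, 237, 152, 240.4 and 56.1 to 2.81, 24.6, 1.79, 0.339 and 70.3 CPM. Only hippocampus null 2 has more Cartpt in members than in other Sst cells.

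Receptors for peptides divide sharply. Of 35 such genes 21 were tested: 6 higher, 10 lower, 5 not called, median -0.48. The orexin receptor Hcrtr1 has 47.8, 64.0, 50.0, 74.5 and 33.6 CPM in members and 0.272, 0.469, 0.819, 4.11 and 0.982 in other Sst cells, and Tacr1 169, 195, 142, 125 and 156 and 1.36, 6.80, 2.27, 11.1 and 1.47. The galanin receptor Galr1 follows with 28.1, 23.8, 31.3, 32.8 and 27.5 and 0.272, 0.704, 0.273, 6.94 and 0.614. None of these ranges overlap (log2 5.65, 5.48 and 4.55, edgeR adjusted p 8.67e-12, 1.68e-11 and 2.26e-07). Npy2r, a receptor for Npy itself, and the oxytocin receptor Oxtr are higher by 2.81 and 1.98. Another 5 receptors have no UMI in members of these libraries, among them Hcrtr2, the other orexin receptor (at least 6.88-fold lower), Cckbr, the brain receptor of Cck (at least 9.71-fold), and the opioid receptor Oprd1 (at least 9.20-fold).

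Nitric oxide synthase does not rise alone. Of 31 genes for nitric oxide and cyclic GMP 25 were tested, and 11 are higher, 4 lower and 10 not called (median 0.43, or 0.15 with library size scaling). Nos1 stands at 2357, 3078, 2177, 1828 and 1339 CPM in members and 24.5, 88.6, 13.9, 111 and 22.3 in other Sst cells. Slc7a3, which imports the substrate arginine, has 138, 149, 159.9, 93.1 and 113 against 4.63, 10.1, 7.00, 10.0 and 12.8, and Ass1, which turns the by-product citrulline back towards arginine, 166, 105, 70.6, 80.6 and 70.3 against 21.2, 15.0, 9.73, 23.1 and 26.3. All libraries of members lie above all libraries of other Sst cells for these 3 genes (log2 5.96, 4.15 and 2.65, edgeR adjusted p 1.68e-11, 3.22e-12 and 8.95e-10). Spr, which helps to make the cofactor tetrahydrobiopterin, and Dynll1, a dynein light chain that binds the synthase, are higher by 1.47 and 1.37. Other steps of the same list do not follow: Asl, Slc7a1, Pts and Qdpr are not called, and Ddah1, which clears an inhibitor of the synthase, is lower at -0.92, though Ddah2, with the same role, is higher at 1.17.

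Genes that act after the gas move both ways. Gucy1a3 and Gucy1b3 encode the subunits of soluble guanylate cyclase, which nitric oxide switches on. Their levels are 242, 185, 157, 126 and 101 and 109.7, 134, 156, 109 and 107 CPM in members, and 8.17, 13.8, 11.5, 10.8 and 37.7 and 37.3, 52.3, 56.0, 53.5 and 72.1 in other Sst cells. Neither range overlaps (log2 3.70 and 1.48, edgeR adjusted p 1.66e-09 and 1.56e-08), and hippocampus null 2 has the smallest gap in both. The other alpha subunit, Gucy1a2, falls by 1.30 on the log2 scale, which is no longer called without cortex WT library 2 (-0.94). Of the enzymes that break cyclic nucleotides down after calcium entry, Pde1a is higher by 2.81 and Pde1c is lower at -2.62, while Pde2a, Pde5a, Pde9a and the kinase Prkg2 are not called. Nos1ap, which ties the synthase to its partners, is lower at -0.62, but not called without cortex WT library 1 (-0.59), cortex WT library 3 (-0.48) or cortex null library 2 (-0.55).

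**Figure D3:**
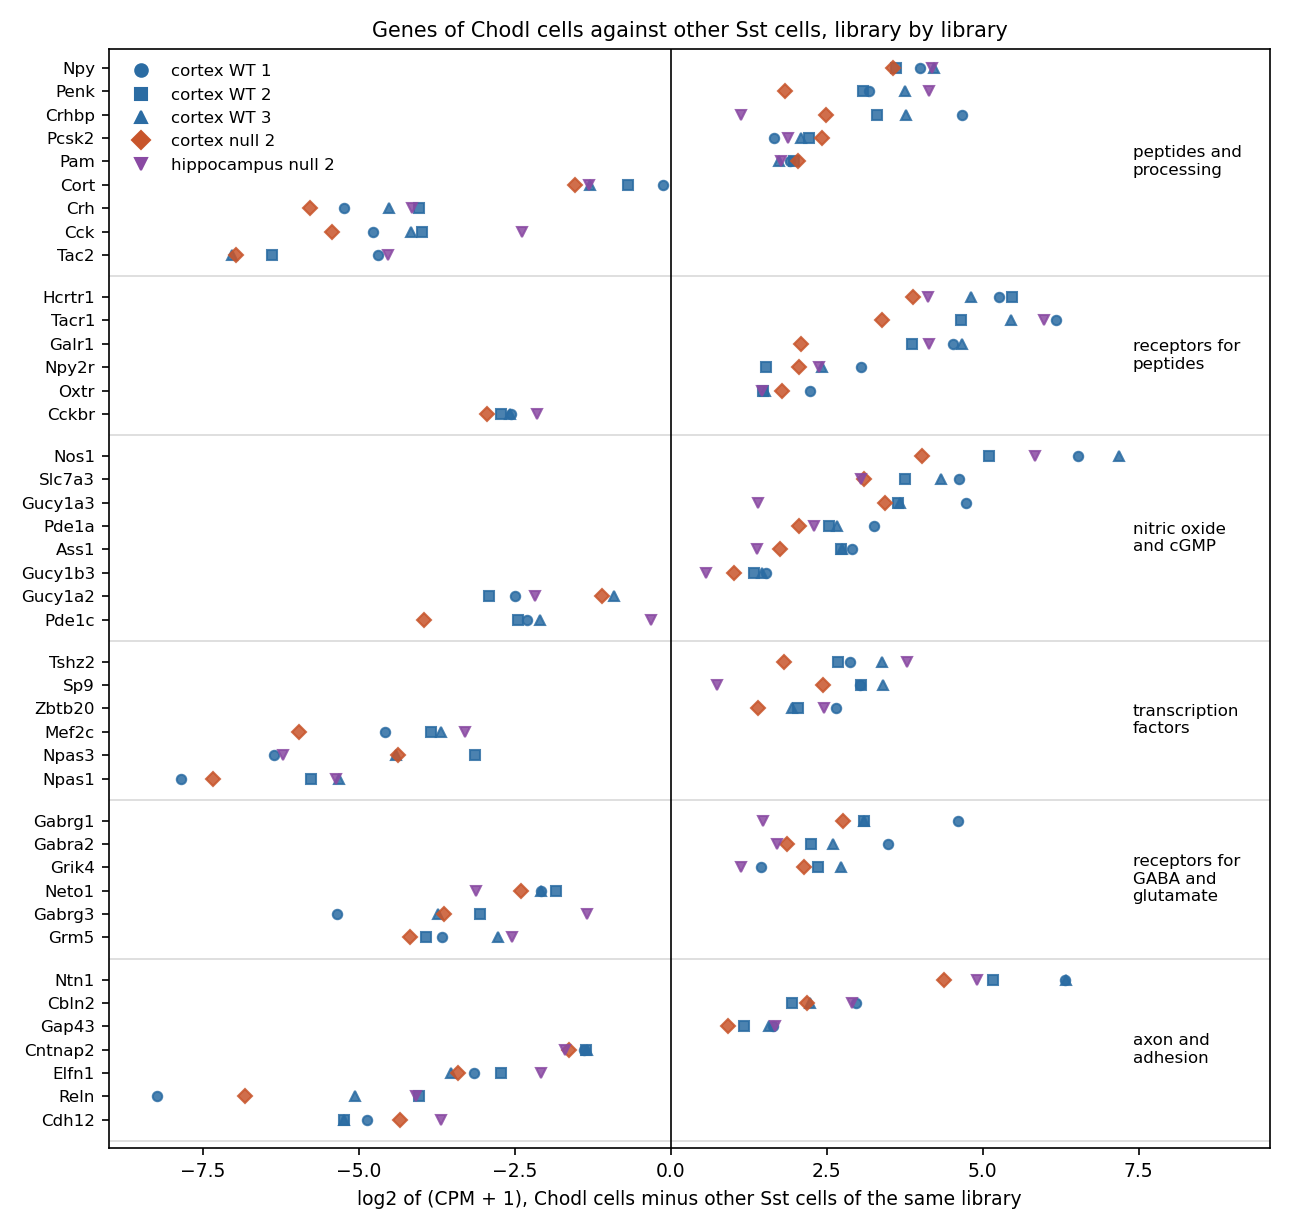
Difference between Chodl cells and other Sst cells of the same library in log2 of CPM plus 1 (horizontal axis) for genes of 6 kinds; each symbol is 1 of the 5 libraries with at least 10 Chodl cells. Npy, Nos1, Hcrtr1 and Ntn1 lie right of 0 in all 5 libraries and Tac2, Npas1 and Reln left of it.

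Transcription factors fall more often than they rise: of 42 listed, 36 were tested, 11 are higher, 19 lower and 6 not called (median -0.93). Sp9, needed for interneuron development, has 160.3, 159, 167, 213 and 138 CPM against 18.8, 18.3, 14.8, 38.6 and 81.8, and Tshz2, a zinc finger factor, 42.2, 38.6, 44.7, 26.1 and 82.5 against 4.90, 5.16, 3.37, 6.68 and 5.03. Npas1, a repressor, has 0, 2.46, 6.25, 0.339 and 3.06 against 231, 187, 290.3, 215 and 166, and Mef2c, an activity-regulated factor, 11.3, 33.7, 28.6, 3.72 and 24.5 against 293, 496, 378, 294 and 249. Each pair is separate in all libraries, at log2 changes of 2.86, 3.42, -6.45 and -4.09 (edgeR adjusted p 2.08e-08, 1.85e-09, 3.36e-13 and 2.83e-11). In hippocampus null 2 the Sp9 gap is the smallest.

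GABA receptors differ in make-up. All 14 listed subunits of the GABA-A receptor were tested: 3 higher, 10 lower, 1 not called, median -1.51. Gabra2, an alpha subunit abundant early in life, has 67.5, 156, 157, 99.5 and 97.8 CPM in members and 5.17, 32.1, 25.1, 26.7 and 29.5 in other Sst cells, and the gamma subunit Gabrg1 75.9, 113, 59.8, 85.7 and 141 against 2.18, 12.4, 6.09, 11.8 and 50.0. Another gamma subunit, Gabrg3, shows the opposite, 0, 5.75, 3.57, 4.40 and 15.3 against 39.7, 55.6, 59.8, 66.1 and 40.5. All 3 are separate without overlap (log2 2.57, 3.10 and -3.28, edgeR adjusted p 2.90e-10, 9.49e-09 and 6.20e-09). Glutamate receptors and their auxiliary proteins fall more often than not: 32 of 35 were tested, 3 higher, 17 lower and 12 not called, median -0.42. Grm5, a metabotropic receptor, drops from 155, 189, 151, 196 and 325 to 11.3, 11.5, 21.4, 9.82 and 55.0 CPM (log2 -3.29), and Neto1, a kainate receptor partner, from 134, 202, 218, 238 and 248 to 30.9, 55.8, 50.9, 44.0 and 27.5 (log2 -1.97), neither with overlap, while the kainate subunit Grik4 rises by 2.68.

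Ion channels give 9 higher, 27 lower and 26 not called of 62 tested (64 listed, median -0.41). Kcnq5, a potassium channel that restrains firing, and Cacna1h, a low-threshold calcium channel, have no UMI in members (at least 23.1-fold and 14.5-fold lower). Cacna1e, another calcium channel, is higher by 1.96. Genes of axon guidance and adhesion give 13 higher, 27 lower and 32 not called of 72 tested (77 listed, median -0.46). Ntn1, the guidance cue netrin-1, has 78.8, 119, 109, 116 and 55.0 CPM in members and 0, 2.35, 0.364, 4.63 and 0.860 in other Sst cells, while Reln, an extracellular matrix protein, has 0, 21.3, 9.82, 1.35 and 18.3 and 302, 365, 361, 267 and 326. Both are separate in every library, in opposite directions (log2 6.36 and -4.98, edgeR adjusted p 5.37e-12 and 1.61e-11). Cdh12, a cadherin, has 1 UMI in these members and 864 in other Sst cells, 167-fold lower with a counting interval from 29.8 to 6591.

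Genes of the axonal cytoskeleton are split, 8 higher, 7 lower and 12 not called of 27 tested, with a median of 0.03 that turns to -0.23 with library size scaling. Gap43, a protein of growing axon tips, has 1845, 1206, 2019, 1002 and 1400.1 CPM in members and 594, 537, 675, 533 and 439 in other Sst cells, and Stmn2, which regulates microtubules, 1986, 1965, 3369, 2089.5 and 1779 and 1335, 1254, 1862, 1617 and 1262. Gap43 is separate in all libraries, and Stmn2 is higher in each library though the ranges overlap (log2 1.65 and 0.85, edgeR adjusted p 1.01e-10 and 9.63e-08). Immediate early genes, which record recent activity and also the dissociation (done here with blockers of firing, NMDA receptors and transcription), give 2 higher, 7 lower and 12 not called of 21 tested (23 listed). Their median is -0.11, and 0.04 with DESeq2. No list was tested as a whole.

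Outside the lists the largest rises include Krt18, a keratin, at 19.7, 12.3, 37.5, 21.3 and 12.2 CPM against 0, 0.469, 0, 0.514 and 0, and Sfrp1, which binds Wnt ligands, at 188, 282, 178, 125 and 147 against 1.63, 5.63, 2.09, 5.40 and 7.98. No library of other Sst cells comes near the member values (log2 7.28 and 5.62, edgeR adjusted p 2.52e-09 and 9.40e-13). One cholinergic gene is on as well: Slc5a7, the choline transporter, has 70.3, 105, 137, 81.9 and 18.3 CPM against 1.36, 4.46, 0.0910, 3.86 and 0.368, with no overlap (log2 5.98). Chat, which makes acetylcholine, and Slc18a3, which loads it into vesicles, have no UMI in any of the 384 members. Among the largest falls are Th, the first enzyme of dopamine synthesis (0, 0, 0, 1.35 and 0 against 22.6, 18.8, 19.1, 46.5 and 3.68 CPM), and Slc30a3, a vesicular zinc transporter (0, 8.21, 4.47, 2.71 and 0 against 193, 140.0, 157, 147 and 108), both separate in all libraries (log2 -5.24 and -4.96).

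Sst cells with at least 2 Nos1 UMIs and no Chodl UMI are the nearest neighbours by this rule, 164 cells, of which 132 lie in the 5 libraries tested. Members differ from them in 837 of 7292 genes tested (11.5%), 480 higher (6.58%) and 357 lower (4.90%), with a median of -0.01. Library size scaling moves the median by -0.28 and the calls to 199 higher and 722 lower, 21.6% higher in place of 57.3%; DESeq2 calls 596. The count is 430 without cortex null library 2 and 477 without cortex WT library 3. Npy is 15338, 24936, 13249.7, 14705 and 2424 CPM in these neighbours, between other Sst cells and members in cortex but below other Sst cells in hippocampus null 2. Hcrtr1 has 9.12, 9.42, 5.10, 12.9 and 1.60 CPM. In contrast, Galr1 and Npy2r are not called here (0.85 and 0.81, edgeR adjusted p 0.226 and 0.313). Members lie above the neighbours in every library for Npy and Hcrtr1 (log2 2.74 and 3.13, edgeR adjusted p 1.71e-06 and 9.00e-07).

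The largest rise against these Nos1 cells is Fam159b, a small membrane protein gene of unknown role, 187 UMIs in members and 1 in the neighbours, 52.7-fold higher with a counting interval from 9.34 to 2091. Lypd1, which tunes nicotinic receptors, has 101, 59.9, 86.6, 85.7 and 113 CPM in members and 9.12, 0, 5.10, 0 and 11.2 in the neighbours, with no overlap (log2 4.42, edgeR adjusted p 9.57e-08). Of the genes for nitric oxide and cyclic GMP, without Nos1, 18 of 30 were tested, 7 higher, 0 lower and 11 not called, median 0.33. The GABA-A subunits give 2 higher, 6 lower and 6 not called of 14, median -1.17.

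The 18 members in hippocampus null 2 are not all alike. Of these, 11 have a Nos1 UMI, with a median of 78473 CPM of Npy and 12 Chodl UMIs, and 7 have none, with medians of 12908 and 4. Npy runs from 5750.5 to 114256 CPM across the 18 cells. Summed, the 7 cells without Nos1 hold 104 CPM of Crhbp, while the 11 with Nos1 hold 1876. Over all libraries the 11 members without Nos1 sum to 10153 CPM of Npy and 94.8 of Crhbp. In the cortex 4 members lack Nos1, 1 in WT library 2 and 3 in WT library 3. The hippocampal sum thus mixes cells with and without Nos1, the latter with 2 to 6 Chodl UMIs and less Npy, and the hippocampal values above should be read so.

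Grin1 itself can be read in members. Its CPM is 90.0, 187 and 146 in cortex WT (32, 228 and 164 UMIs), 27.7 and 36.2 in cortex null (2 and 107 UMIs), 172 and 0 in hippocampus WT 2 and 3 (5 UMIs, and 0 of 23504) and 39.7 in hippocampus null 2 (13 UMIs). Cortical null values lie below all cortical WT values. Other Sst cells have 161, 273 and 238 CPM in cortex WT and 37.3 and 27.8 in cortex null, so in each cortex WT library members hold less Grin1. In cortex null 2 and hippocampus null 2 the order is the reverse, with 23.2 CPM in other Sst cells of the latter. The fit of members from the 5 libraries gives -1.96 on the log2 scale, not called (edgeR adjusted p 0.107); without cortex WT library 1 it is -2.16 and called, and with replicate as a block and sums of at least 3 cells, a fit chosen after seeing the data, it is -2.14 and called (edgeR adjusted p 0.00286).

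**Figure D4:**
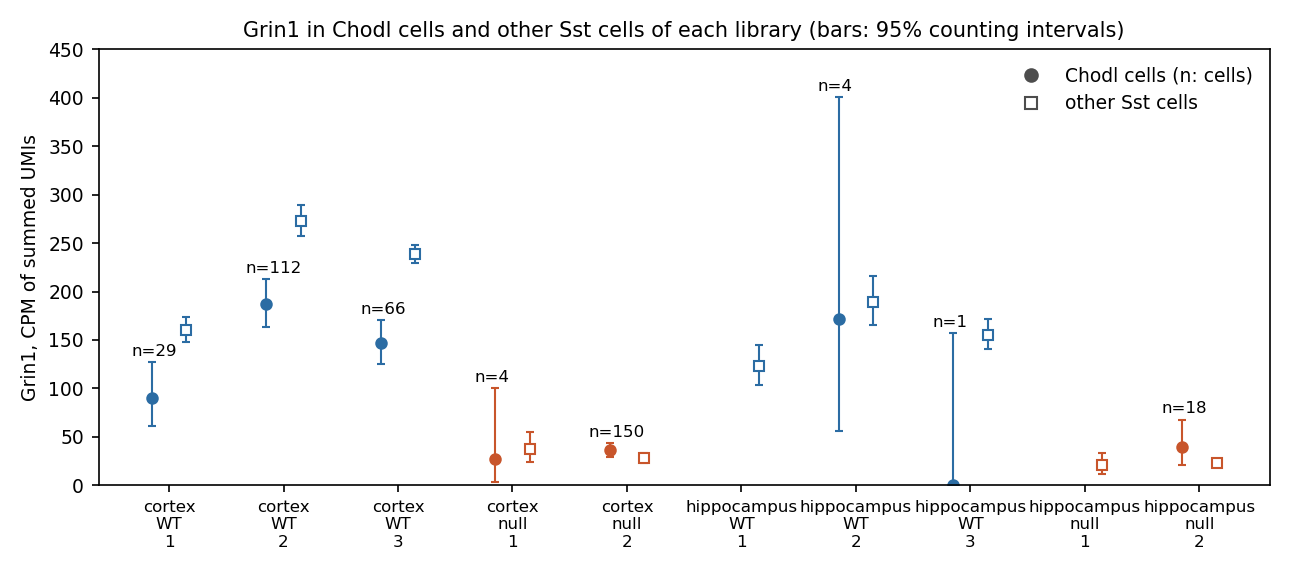
Grin1 in CPM of summed UMIs (vertical axis) in Chodl cells (filled) and other Sst cells (open) of each library, WT in blue and null in orange, with 95% counting intervals and the number of Chodl cells. Members hold 90.0 to 187 CPM in cortex WT and 27.7 and 36.2 in cortex null.

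Few genes pass the test of genotype within members. In a model with region and genotype 3 of 9705 genes are called (0.0309%), with 292 at an unadjusted p under 0.05, and DESeq2 calls 0, with 53 at that level. The region term takes up the only hippocampal library, so the contrast rests on cortex null library 2 against 3 WT libraries, with no spread of its own in the null arm, and the lone library is assumed to vary like the others. None of the 3 genes is called with replicate as a block and sums of at least 3 cells. Rbp4, a retinol carrier, has 84.4, 137 and 106 CPM in cortex WT and 18.6 in cortex null 2, but 665 in the 4 members of cortex null 1, so the null values lie on both sides of WT. Its change of -2.54 (edgeR adjusted p 0.00994) is not called without cortex WT library 2 (-2.37) or 3 (-2.55), and with sums of at least 3 cells it turns to 1.09. Rn7sk, a small nuclear RNA, has 33.8, 27.9 and 14.3 CPM in cortex WT and 104 in cortex null 2, above all of them; its change of 2.15 (edgeR adjusted p 0.00994) is not called without cortex WT library 2 (2.29) or 3 (1.83). Xist, expressed from the inactive X of females, has 332, 0 and 2.68 CPM in WT and 0 in cortex null 2 (-9.80, edgeR adjusted p 0.00312), and is named after its values were seen. The genotypes overlap in Xist, since WT library 2 has 0 as well. Its high value comes from cortex WT library 1 alone, and with 0 in cortex null 2 the log2 value is no exact fold. By Xist, sex is not balanced over these libraries. Sex was not in the model, so its part in the genotype contrast was not tested.

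Whether genotype acts differently on members and on other Sst cells was tested as an interaction. It calls 5 of 12242 genes (0.0408%), with 644 at an unadjusted p under 0.05, and DESeq2 calls 1, with 256 at that level. S100a10, an adaptor protein, has 518, 700.4, 856, 846 and 550.3 CPM in members and 41.1, 39.6, 41.6, 155 and 88.8 in other Sst cells. Of these libraries, the null ones are higher only in other Sst cells (log2 -1.55, edgeR adjusted p 0.000411). The make-up of other Sst cells differs too. Those with at least 2 Nos1 UMIs are 12 of 433, 31 of 793 and 19 of 1230 in cortex WT. In cortex null 2 they are 35 of 297 and in hippocampus null 2 35 of 547. Whether this mix adds to the interaction was not tested. Crhbp, by the values given earlier, is higher among other Sst cells in the 2 null libraries tested than in the 3 of cortex WT, and cortex null 1 has 503 CPM, but the hippocampus overlaps, with 122, 444 and 405 in WT and 346 in null 1. Among members cortex null 2 lies just under the lowest cortex WT library, and the 4 members of cortex null 1 hold 2882 CPM, inside the cortex WT range. Hippocampus null 2 is lower than these, at 1354 CPM (interaction log2 -2.04, edgeR adjusted p 0.00578). Hippocampal WT members lie on both sides of it, at 2645 CPM in library 2 (4 cells) and 511 in library 3 (1 cell, 12 UMIs). Neither holds throughout: without cortex WT library 3 the test calls 0 genes with 481 at an unadjusted p under 0.05, S100a10 then at -1.33 and Crhbp at -2.08, and Crhbp is not called without cortex WT library 1 (-1.71) either. Without cortex null library 2 it calls 128, and without hippocampus null library 2 it calls 30. The only hippocampal library here is null, so region and genotype cannot be told apart in it.

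Sst is a classic target of cyclic AMP signalling, so the 300 bases around 4 RefSeq transcription starts, 250 before to 50 after, were searched for its response element, TGACGTCA, and for the partial site TGACG on both strands. Of 32851 promoters of that length, 588 (1.79%) hold the full element and 6837 (20.8%) the partial site. The promoters of Sst (chr16:23890795-23891094, minus strand), Npy (chr6:49822460-49822759, plus strand), Crhbp (chr13:95444782-95445081, minus strand) and Nos1 (chr5:117866589-117866888, plus strand), all GRCm38.p6 and written 5' to 3' along the gene, are shown because these peptide and marker genes are described here; which start the cells use was not measured, and those of Sst, Crhbp and Nos1 lie inside the GENCODE genes. Sst has the full element, whose 2 partial sites overlap it, Crhbp and Nos1 have 1 partial site each on the other strand, and nothing follows from the absence of a match in Npy.
Sst: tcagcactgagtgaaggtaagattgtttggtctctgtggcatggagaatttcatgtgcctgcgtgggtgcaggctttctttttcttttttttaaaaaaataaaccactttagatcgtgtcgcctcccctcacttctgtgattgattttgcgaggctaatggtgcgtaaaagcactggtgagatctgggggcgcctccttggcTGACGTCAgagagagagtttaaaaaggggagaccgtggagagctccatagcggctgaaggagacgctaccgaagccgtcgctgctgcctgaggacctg
Npy: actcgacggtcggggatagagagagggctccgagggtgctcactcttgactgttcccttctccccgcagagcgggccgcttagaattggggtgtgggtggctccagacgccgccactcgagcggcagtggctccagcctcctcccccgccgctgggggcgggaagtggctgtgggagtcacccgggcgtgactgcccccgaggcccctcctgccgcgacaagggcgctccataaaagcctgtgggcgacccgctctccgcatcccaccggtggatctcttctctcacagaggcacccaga
Crhbp: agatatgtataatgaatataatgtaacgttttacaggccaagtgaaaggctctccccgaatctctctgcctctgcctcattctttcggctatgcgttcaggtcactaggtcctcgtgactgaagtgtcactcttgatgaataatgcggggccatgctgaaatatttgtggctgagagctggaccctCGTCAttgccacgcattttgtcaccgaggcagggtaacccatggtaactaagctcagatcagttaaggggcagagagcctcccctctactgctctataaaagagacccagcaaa
Nos1: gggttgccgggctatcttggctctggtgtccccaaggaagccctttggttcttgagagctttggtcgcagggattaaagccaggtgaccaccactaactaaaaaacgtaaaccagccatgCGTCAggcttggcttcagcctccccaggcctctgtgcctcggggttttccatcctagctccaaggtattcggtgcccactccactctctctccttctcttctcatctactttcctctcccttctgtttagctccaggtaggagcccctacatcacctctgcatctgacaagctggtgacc
A match describes the letters and does not show that a factor binds there.

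In sum, the 375 Chodl cells tested, of 384, differ as sums from other Sst cells in the same libraries by abundant Npy, Penk and Crhbp, some but not all genes for nitric oxide, among them Nos1, Slc7a3, Ass1, Gucy1a3 and Gucy1b3, the receptors Hcrtr1 and Tacr1, and a different choice of GABA-A subunits. These differences hold in the cortex WT libraries and in cortex null library 2, the only cortical null library tested. Their share among Sst cells and their response to Grin1 loss rest on 1 cortical null library of 2, and the hippocampal members tested come from a single library.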

How the data were processed

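Single-cell RNA was measured in TdTomato-sorted cells of 10 libraries, 3 WT and 2 Grin1-null each from frontal cortex and hippocampus. The deposited files are 4 matrices of UMI counts that the authors made with Cell Ranger (2.1.1 in their notes, 3.0.2 in the matrix headers) on mm10, beside barcode and gene name files. Libraries were told apart by barcode suffix and matched to replicates by their cell numbers. The members and gene lists were chosen with earlier results of these data known.

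Kept cells (26201) and members follow the thresholds in the report. UMI totals per library are 9306756, 14212183 and 28057207 in cortex WT, 1488601 and 25688337 in cortex null, 10555408, 8782181 and 20639002 in hippocampus WT and 3856745 and 47338167 in hippocampus null, so a gene at 10 CPM has about 3 UMIs in the members of the smallest tested sum. Counts were summed per library and set, leaving out sums of under 10 cells, and fitted in edgeR 4.0.16 (limma 3.58.1, R 4.3.3; TMM, filterByExpr, quasi-likelihood test, Benjamini-Hochberg over all genes tested). Members were compared with other Sst cells and with Nos1 cells without Chodl with library as a block, null with WT with region in the model, and the interaction with library as a block. Shares were compared by a two-sided exact permutation test over libraries. Cells never serve as replicates. Log2 changes are members minus the compared cells, or null minus WT. The tests were checked on simulated data.

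Named genes are the markers and Grin1, up to 6 called genes per direction and list by size of change, members of the peptide and nitric oxide lists, the largest changes outside the lists, and the top gene of each marker list of another cell type. Cells Scrublet marks as doublets were kept in the main analysis. Alternatives were DESeq2 1.42.0, library size scaling, other filters, thresholds and cell limits, Scrublet removal, thinning to 3000 UMIs, no block, WT or cortex only, and leaving out each library. The cell sets, shares and figures were made in Python 3.11.15 (scanpy 1.11.5 for Scrublet, matplotlib 3.10.9, pandas 2.3.3, scipy 1.17.1, numpy 2.4.6).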

Additional observations from a re-analysis of the deposited data

Results flagged for a closer look

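The interaction of cell set and genotype calls 5 genes in the main edgeR fit at an adjusted p under 0.01. The log2 values, null minus WT, are -1.55 for S100a10, -2.17 for Rbp4, -2.04 for Crhbp, -1.45 for Mxra7 (a membrane protein gene) and 2.25 for Lypd1. Region is not balanced in this test, since its only hippocampal library is null. The share of Nos1 cells among other Sst cells also differs between its libraries. The calls do not hold throughout: 0 genes without cortex WT library 3, 2 without cortex WT library 1 and 1 with DESeq2.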

How the results depend on the processing

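Without cortex null replicate 2 the cortical share difference of 11.0 points is -2.69, and without hippocampus null replicate 2 the hippocampal one of 1.11 is -0.460. Leaving out 1 library each, the ranges are -2.69 to 24.7 points in cortex, -0.460 to 2.68 in hippocampus and -8.64 to -5.15 between WT regions, 1834 to 3177 called genes against other Sst cells, 430 to 826 against Nos1 cells, 2 to 12 for genotype within Chodl cells, 0 to 128 for the interaction and -2.16 to -1.74 for Grin1. Genotype within Chodl cells could not be fitted without cortex null replicate 2.

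Without a library block 1131 genes are called against other Sst cells and 265 against Nos1 cells, and after thinning to 3000 UMIs 1182 are called in the former. An adjusted p under 0.05 calls 1323 genes against Nos1 cells and 18 in the interaction. For genotype within Chodl cells, DESeq2, sums of at least 3 cells, the stricter cell filter and at least 3 Chodl UMIs each call 0 genes, and library size scaling calls 1; Rbp4 turns to 1.09 with sums of at least 3 cells. The interaction calls 1 gene with DESeq2, 43 with no filter on low counts, 17 with at least 3 Chodl UMIs and 3 when the other Sst cells may hold 1 Chodl UMI.

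Replicate as a block could not be fitted at 10 cells. A version with sums of at least 3 cells, chosen after seeing the data, calls 10 genes for genotype, none of them among the 3 of the main analysis, with Grin1 at -2.14 and called.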
